A study of Mus musculus with 8 samples.

Results

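Canonical Wnt mediators and target genes were compared between vessel-enriched cells of the cortex and of the lungs, sorted for GFP from mouse embryos at E13.5. The group comprised 10 named genes, of which 9 had a probe set annotated to that gene alone and were among the 18193 genes tested. Where a gene had several such probe sets, the one with the highest mean over the 8 arrays represented it. That mean includes both tissues, so the rule favours probe sets that are bright in either, and in 5 of the 6 genes with several the chosen one had the largest difference towards cortex. Tcf7 had no such probe set in the annotation used and was not analysed here. The 9 measured genes were Lef1, Axin2, Apcdd1, Tnfrsf19, Nkd1, Notum, Sp5, Znrf3 and Rnf43.

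The cells came from homozygous Tie2-GFP transgenic mice, in which green fluorescent protein is made under the Tie2 (Tek) promoter, Tek being a receptor of endothelial cells. All 8 samples carried this transgene, and no sample was treated. Cortex was dissected free of meninges and choroid plexus, and lung served as the other organ of the same age. Tissue of the 10 to 13 embryos of a litter was pooled for each array, giving 4 cortex arrays and 4 lung arrays, numbered 72, 22, 19 and 18 in both tissues. The Tie2 promoter is also active in some blood-forming cells, so the GFP gate is not restricted to endothelium.

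In canonical Wnt signalling, a Wnt ligand bound to a Frizzled receptor and an Lrp co-receptor stops the destruction complex from marking beta-catenin for degradation. Beta-catenin then enters the nucleus and joins DNA-binding factors of the Tcf and Lef family, which switch on target genes. Many of these targets encode brakes on the pathway, so their transcripts are widely used as a readout of it. In brain endothelium this pathway is known for its role in vessel ingrowth and in formation of the blood-brain barrier.

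Tcf and Lef proteins bind a short element, and promoters of the genes were searched for its 7-base core on both strands in 4 forms. The forms were AACAAAG as the first, then ATCAAAG as another, TACAAAG as a further form and TTCAAAG as the last. RefSeq promoter sequences (GRCm38.p6) reaching from 250 bases before to 50 bases after a transcript start were found for 6 of the measured genes, Lef1, Axin2, Tnfrsf19, Nkd1, Sp5 and Rnf43, with 11 promoters in all. An element was present in 3 of the 11 promoters, 27.3%, against 16.9% of all 32851 promoters in the table. Several of the 11 belong to the same gene, and some of Lef1 overlap, so they are not independent. The difference in share was not tested. Apcdd1, Notum and Znrf3 had no promoter there. These 3 promoters, each 300 bases, are printed because Lef1 is a DNA-binding partner of beta-catenin, Tnfrsf19 rose in cortex and Sp5 held a pair of elements. Capitals mark the elements, and each sequence runs 5′ to 3′ on the strand of its gene. Lef1 (chr3:131156044-131156343, plus strand) is shown for the fourth of its listed starts, Tnfrsf19 (chr14:61037938-61038237, minus strand) for the second, and Sp5 (chr2:70474673-70474972, plus strand) for its listed start.
Lef1: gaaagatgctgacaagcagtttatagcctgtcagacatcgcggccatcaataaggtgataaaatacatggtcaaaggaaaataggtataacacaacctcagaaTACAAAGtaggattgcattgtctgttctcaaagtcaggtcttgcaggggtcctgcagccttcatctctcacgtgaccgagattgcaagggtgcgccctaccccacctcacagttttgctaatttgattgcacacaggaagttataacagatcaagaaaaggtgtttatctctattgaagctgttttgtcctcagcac
Tnfrsf19: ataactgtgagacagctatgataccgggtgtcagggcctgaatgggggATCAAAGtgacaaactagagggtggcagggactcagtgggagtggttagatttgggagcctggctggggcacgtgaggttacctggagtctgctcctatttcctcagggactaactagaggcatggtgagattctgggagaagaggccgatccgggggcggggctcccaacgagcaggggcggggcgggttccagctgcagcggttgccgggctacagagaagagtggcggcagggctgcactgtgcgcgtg
Sp5: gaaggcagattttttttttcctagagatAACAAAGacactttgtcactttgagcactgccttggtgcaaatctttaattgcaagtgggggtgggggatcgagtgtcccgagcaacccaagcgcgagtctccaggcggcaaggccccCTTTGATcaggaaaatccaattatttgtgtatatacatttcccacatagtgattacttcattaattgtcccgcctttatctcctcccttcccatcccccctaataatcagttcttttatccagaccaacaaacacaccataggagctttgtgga
The element lay 147 bases before the start in Lef1 (TACAAAG) and 202 bases before it in Tnfrsf19 (ATCAAAG). Sp5 carried AACAAAG 222 bases and CTTTGAT, the reverse complement of ATCAAAG, 104 bases before its start. The other 8 promoters, including the single promoters of Axin2 and Nkd1, did not hold these letters. A match is a description of the sequence and does not show binding.

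Values are log2 RMA intensities, on which 1 unit is a 2-fold difference, and a level is not comparable between genes. In 4 samples, both tissues of numbers 19 and 18, the description field disagrees with the title about the tissue. Titles, source names and tissue labels were used, and the neural marker mean went with them, at 10.90 to 11.50 on the 4 arrays titled cortex and 6.21 to 6.61 on the 4 titled lung. Endothelial markers were measured in both tissues. The mean of 22 such genes lay at 10.09, 11.38, 11.55 and 9.70 on cortex arrays 72, 22, 19 and 18, against 11.88, 11.98, 12.05 and 11.55 on the lung arrays of the same numbers. The test called 6 of these 22 genes lower in cortex than in lung and 0 higher, at a median difference of -1.13 log2 units. All 18 neural markers were called higher in cortex, as were 2 of 7 erythroid, 2 of 9 macrophage and 2 of 5 choroid plexus markers. Of 15 mesenchymal and mural markers 1 was called higher in cortex and 8 were called higher in lung, and of 9 lung epithelial markers 2 were called higher in lung. The lowest value in the data was 2.82 and no detection call was given, so the values do not show which markers were absent. In such sorted pools, fewer cells of a type and less RNA per cell cannot be told apart.

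Of the 9 Wnt genes, 3 rose in cortex, namely Apcdd1, Tnfrsf19 and Nkd1, and 0 fell (limma, Benjamini-Hochberg adjusted p under 0.05 over all genes). For comparison, the test called 10.4% of all genes towards cortex and 7.71% towards lung. Lef1, Axin2 and Sp5 had higher means in cortex with an unadjusted p under 0.05 but did not pass the adjusted test. An unadjusted limma p under 0.05 was reached by 31.3% of all genes, in either direction. Znrf3, Notum and Rnf43 did not pass either, and 0 genes had a higher mean in lung at an unadjusted p under 0.05. The mean was higher in cortex for 7 of the 9 genes, against 41.5% of all genes, and the median difference was 1.01 log2 units, against -0.09 over all genes tested. For 3 of the 9, every cortex array lay above every lung array, and 12.5% of all genes had that pattern.

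**Figure D1:**
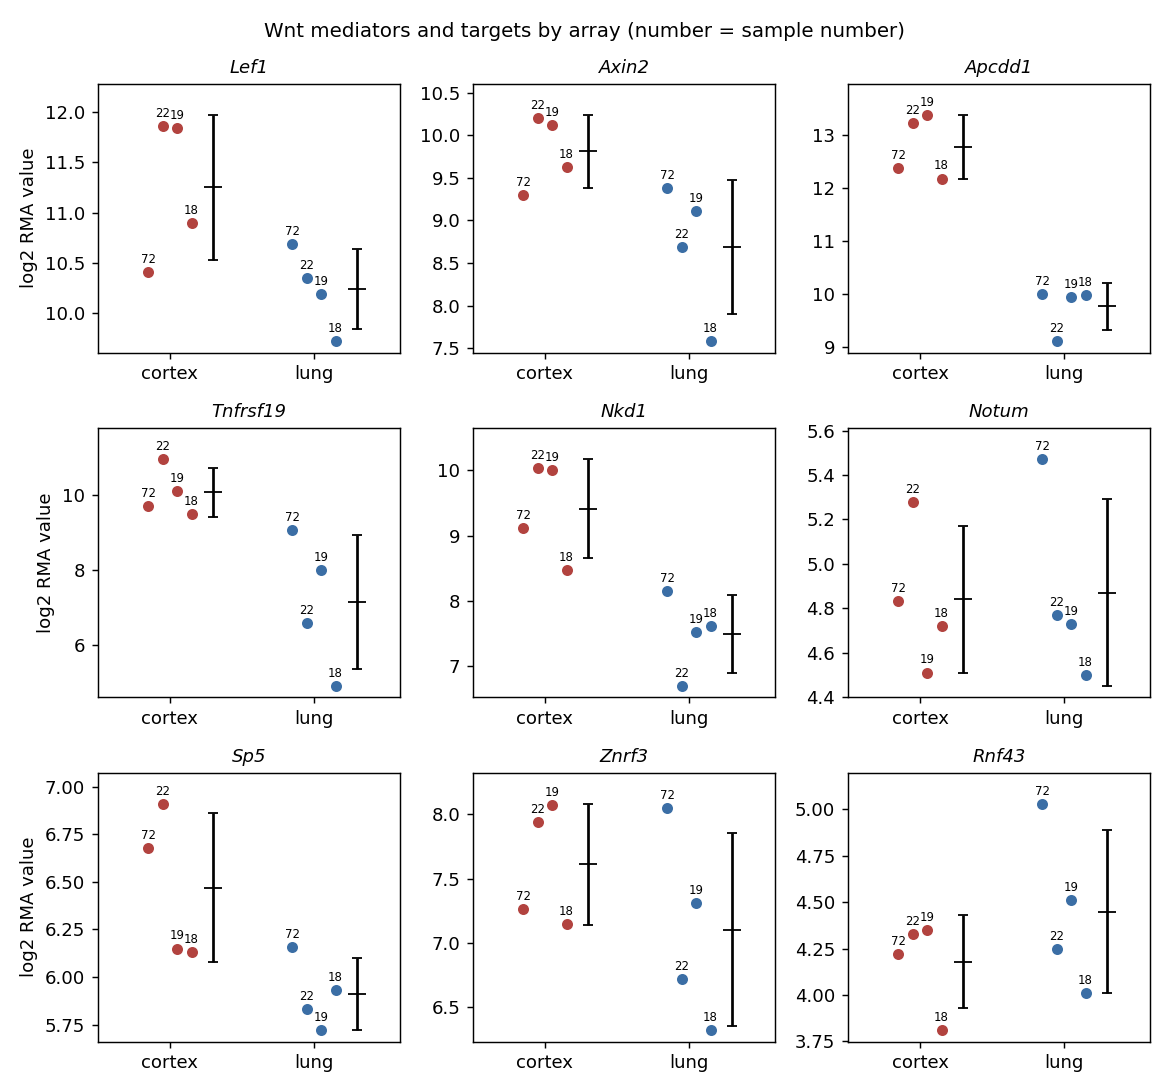
Log2 RMA value (y axis, own range in each panel) of 9 Wnt genes on the 4 cortex arrays (red, left) and the 4 lung arrays (blue, right), labelled by sample number, with mean ± SD in black. Apcdd1, Tnfrsf19 and Nkd1 show no overlap between tissues, while the lung values of Tnfrsf19 spread from 4.92 to 9.06.

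Lef1 encodes the high mobility group factor that carries beta-catenin to DNA. It lay at 10.41, 11.86, 11.84 and 10.90 on cortex arrays 72, 22, 19 and 18, against 10.69, 10.35, 10.19 and 9.72 on lung arrays 72, 22, 19 and 18. Cortex 22 and 19 stood more than 1 log2 unit above every lung array, whereas cortex 72 lay within the lung range. The means were 11.25 ± 0.72 in cortex and 10.24 ± 0.40 in lung (SD, n = 4 each), a difference of 1.01 log2 units (95% confidence interval 0.19 to 1.83, limma adjusted p = 0.0903). Leaving out cortex 72 raised the difference to 1.29 log2 units and brought a call (adjusted p = 0.0361). The second Lef1 probe set differed by 0.86 log2 units in the same direction, at 6.98 ± 0.98 in cortex and 6.12 ± 0.44 in lung, without a call.

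Among the feedback brakes that act inside the cell, Nkd1, which binds Dishevelled, rose in cortex. Its values were 9.11, 10.04, 10.00 and 8.47 on cortex arrays 72, 22, 19 and 18, against 8.15, 6.69, 7.51 and 7.61 on the lung arrays in the same order. The lowest cortex array, 18, lay above the highest lung array, 72. The difference was 1.92 log2 units, 3.78-fold (95% confidence interval 0.96 to 2.87, limma adjusted p = 0.0141). The call held without any single array, at 1.65 to 2.23 log2 units. It ended when both arrays numbered 22 (1.44 log2 units, adjusted p = 0.0729) or both numbered 19 (1.73 log2 units, adjusted p = 0.0827) were left out. The other 3 probe sets of Nkd1 were also higher in cortex, by 0.74, 0.82 and 1.24 log2 units, and the mean of all 4 differed by 1.18.

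Axin2, a scaffold of the destruction complex and a widely used reporter of the pathway, did not pass. It lay at 9.30, 10.20, 10.12 and 9.63 on cortex arrays 72, 22, 19 and 18, against 9.38, 8.69, 9.11 and 7.58 on the lung arrays in that order. The ranges met only where lung 72 exceeded cortex 72. The difference was 1.13 log2 units (95% confidence interval 0.23 to 2.02, limma adjusted p = 0.0845). The second Axin2 probe set did not follow it, at 5.42 ± 0.39 in cortex and 5.39 ± 0.29 in lung, a difference of 0.03 log2 units, so the mean over both probe sets differed by 0.58.

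Of the surface proteins, Apcdd1, a membrane glycoprotein that inhibits Wnt signalling, showed the largest difference of the 9 genes over all arrays. It lay at 12.36, 13.21, 13.36 and 12.17 on cortex arrays 72, 22, 19 and 18, against 10.00, 9.10, 9.94 and 9.98 on the lung arrays in that order. More than 2 log2 units separated the lowest cortex array from the highest lung array. The difference was 3.02 log2 units, 8.11-fold (95% confidence interval 2.27 to 3.77, limma adjusted p = 0.000366), and the call held in all 22 alternatives, at 2.66 to 4.21 log2 units. The chosen probe set has the _x_at suffix, which marks probes that can bind related transcripts. Without probe sets of the _x_at and _s_at types another represented the gene and gave 3.57 log2 units (adjusted p = 0.000357). All 6 Apcdd1 probe sets were higher in cortex, by 2.54 to 3.92 log2 units, and 5 of them were called over all probe sets.

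Tnfrsf19 (Troy), a tumour necrosis factor receptor family member and reported Wnt target, rose in cortex with wide scatter in lung. It lay at 9.70, 10.94, 10.10 and 9.49 on cortex arrays 72, 22, 19 and 18, against 9.06, 6.6, 8.01 and 4.92 on the lung arrays in that order. The SD was 0.64 in cortex and 1.79 in lung, and lung 72 came close to cortex 18. The difference was 2.91 log2 units, 7.52-fold (95% confidence interval 1.08 to 4.74, limma adjusted p = 0.0381). The call ended without cortex 72, 22, 19 or 18 and without lung 22 or 19 (adjusted p = 0.0535 to 0.0917), and it held without lung 72 (adjusted p = 0.0114) or lung 18 (adjusted p = 0.0446). Adjusted over all 45037 probe sets, the same probe set missed the threshold (adjusted p = 0.052), while a second one was called at 1.24 log2 units, with 7.07 ± 0.42 in cortex and 5.83 ± 0.18 in lung. The third differed by 0.67 log2 units in the same direction, and the mean of all 3 by 1.61.

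Znrf3 and Rnf43 encode related membrane ubiquitin ligases that remove Frizzled receptors from the cell surface, and neither passed. Znrf3 lay at 7.26, 7.94, 8.07 and 7.15 on cortex arrays 72, 22, 19 and 18, against 8.05, 6.72, 7.31 and 6.32 on the lung arrays in that order (0.50 log2 units, 95% confidence interval -0.38 to 1.38, limma adjusted p = 0.408). Its second probe set had the opposite sign, at 6.86 ± 0.28 in cortex and 7.17 ± 0.15 in lung. Rnf43 was dim on every array, at 3.81 to 4.35 in cortex and 4.01 to 5.03 in lung, below the array medians of 6.59 to 6.72. Its difference of -0.27 log2 units (95% confidence interval -0.81 to 0.27) did not pass (limma adjusted p = 0.465).

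Notum, a secreted enzyme that strips the lipid from Wnt proteins, was likewise dim. It ranged from 4.51 to 5.28 in cortex and from 4.50 to 5.47 in lung, with a difference of -0.03 log2 units (95% confidence interval -0.60 to 0.53, limma adjusted p = 0.941). The direction of so small a difference turned in 8 of 21 alternatives. Sp5, a zinc finger factor whose promoter is printed above, lay at 6.68, 6.91, 6.15 and 6.13 on cortex arrays 72, 22, 19 and 18, against 6.16, 5.83, 5.72 and 5.93 on the lung arrays in that order. Cortex 19 and 18 lay just below lung 72, and the other cortex arrays above all lung arrays. Its difference was 0.56 log2 units (95% confidence interval 0.08 to 1.04, limma adjusted p = 0.106). RMA compresses differences at the low end, so values of Notum, Rnf43 and Sp5 may understate a difference.

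**Figure D2:**
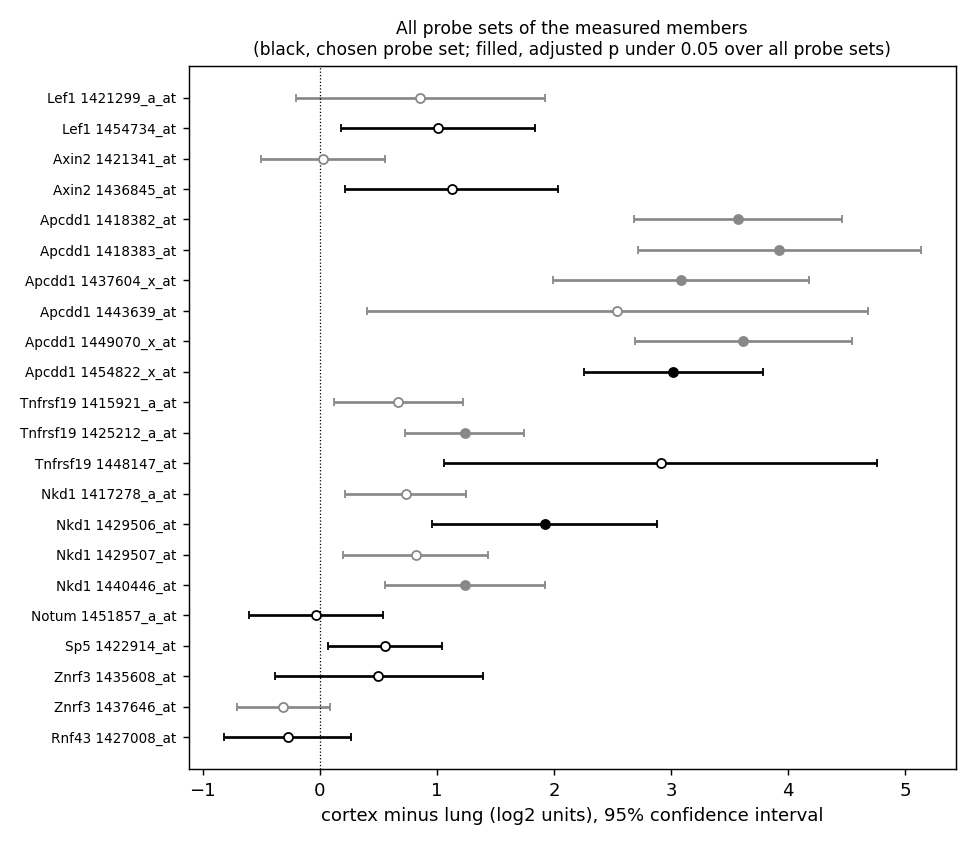
Cortex minus lung in log2 units (x axis) with 95% confidence intervals for all 22 probe sets of the 9 Wnt genes. Black marks the probe set that represents its gene, and filled circles mark an adjusted p under 0.05 over all 45037 probe sets. Of the 13 probe sets not chosen, 12 have the sign of the chosen one, the exception being Znrf3.

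Over all probe sets, 8 of the 22 were called towards cortex and 0 towards lung, where 7.28% and 4.88% of all 45037 were called. They comprised 5 of Apcdd1, 2 of Nkd1 and 1 of Tnfrsf19. Probe sets of 1 gene are not independent, since they read the same RNA.

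The cortex arrays were not alike for these genes. Cortex 22 and 19 were the highest cortex arrays for 7 of the 9 genes, the exceptions being Notum and Sp5, and 17% of all genes shared that order. Those arrays also had the higher endothelial marker means, 11.38 and 11.55, against 10.09 for cortex 72 and 9.70 for cortex 18. Their neural means were 11.16 and 10.90, against 11.50 and 11.46 for cortex 72 and 18. Cortex 72 and 18 were not alike for every list. The macrophage mean was 8.63, 8.27, 9.05 and 5.78 on cortex 72, 22, 19 and 18. For choroid plexus it was 7.97, 6.94, 8.10 and 6.48 in that order. Without cortex 72 and 18, a setting added after the data were seen, the differences were 3.53 log2 units for Apcdd1, 3.37 for Tnfrsf19, 2.53 for Nkd1 and 1.61 for Lef1. Lef1 was then called (limma adjusted p = 0.0165) and Tnfrsf19 was not (adjusted p = 0.125). The part of neural, endothelial, macrophage or choroid plexus transcripts in the values of the Wnt genes was not tested.

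The lung arrays had an order of their own. Axin2, Tnfrsf19, Znrf3 and Rnf43 were highest on lung 72, then lung 19, lung 22 and lung 18. The mean of the 15 mesenchymal and mural markers, 6.36 to 7.02 on the cortex arrays, had the same order on those lung arrays, at 9.60, 8.83, 8.25 and 7.23. The lung epithelial mean, at 7.78, 6.84, 6.51 and 6.36, and the macrophage mean, at 6.76, 6.39, 5.82 and 5.73, had this order too. Among all genes 15% followed that order. Apcdd1 did not, with lung 22 lowest, and neither did Nkd1, Lef1, Sp5 or Notum. The part of mesenchymal, epithelial or macrophage transcripts in the lung values was not tested.

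**Figure D3:**
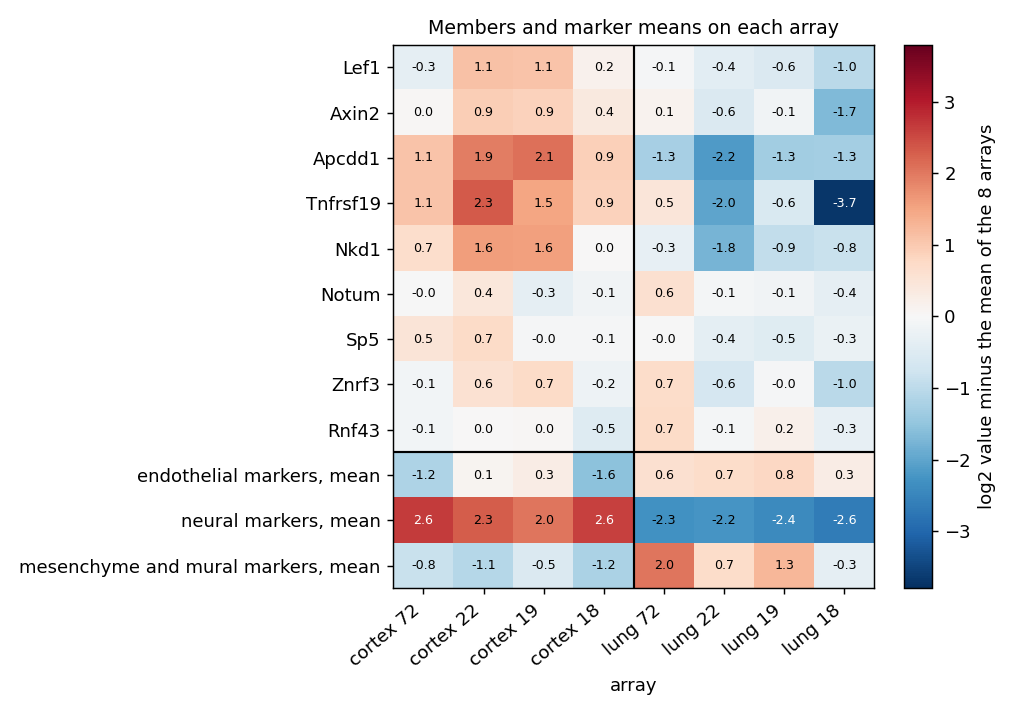
Log2 value minus the mean of the 8 arrays (colour and printed number) for the 9 Wnt genes and, under the line, for the means of the endothelial, neural and mesenchymal marker lists, with the cortex arrays left and the lung arrays right. Cortex 22 and 19 are highest among cortex arrays for 7 genes, and Tnfrsf19 on lung 18, at 4.92, lies furthest from its own mean.

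Shifting each array to the same mean of the 22 endothelial markers moved every gene towards cortex, by 1.19 log2 units. The 9 Wnt genes then had a median difference of 2.20 log2 units, against 1.10 over all genes. Under this scaling 7 of them were called higher in cortex, where 27.6% of all genes were called so and 0.824% were called towards lung. The added calls were Lef1 (2.20 log2 units), Axin2 (2.31), Sp5 (1.74) and Znrf3 (1.69). Notum, at 1.15, and Rnf43, at 0.91, turned positive without a call and lay close to the median of all genes. Each of the 9 genes had a standard error (SE) of 0.58 log2 units in this fit, against 0.21 (Sp5) to 0.80 (Tnfrsf19) on the deposited values. A call in this fit therefore followed the size of the shifted difference and not the scatter of the single gene.

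**Figure D4:**
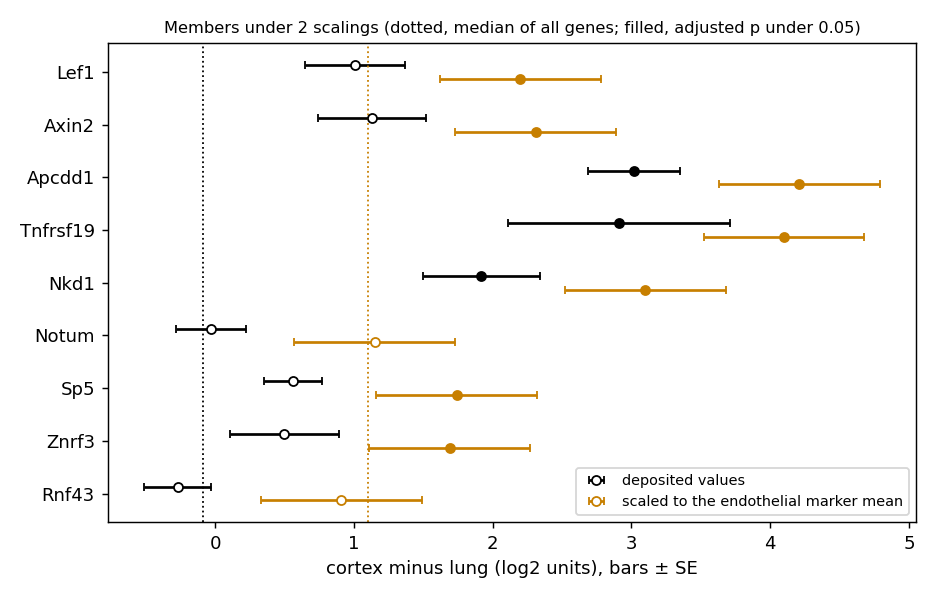
Cortex minus lung in log2 units (x axis, bars ± SE) for 9 Wnt genes from the deposited values (black) and after scaling to the endothelial marker mean (orange). Filled circles mark an adjusted p under 0.05, and dotted lines mark the median of all genes, -0.09 and 1.10. The order of the genes is the same on both scales because the scaling shifts all of them by 1.19.

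The genes whose values over the 8 arrays ran closest to each called Wnt gene were ranked by root mean square distance after each gene was centred on its own mean. This measure describes likeness and carries no test. For Apcdd1 the nearest was the reelin receptor gene Lrp8, at a distance of 0.0969 log2 units, followed by the neutral amino acid transporters Slc1a4 (0.342) and Slc7a5 (0.363). Lrp8 lay at 11.28, 12.48, 12.40 and 11.29 on cortex arrays 72, 22, 19 and 18, against 9.04, 8.17, 8.93 and 9.07 on the lung arrays in that order, so that it too was lowest on lung 22. For Nkd1 the nearest were the organic anion transporter Slco2b1 (0.249), the microtubule-associated protein gene Map7 (0.252) and the retinol uptake receptor gene Stra6 (0.266). For Tnfrsf19 they were the membrane adaptor gene Pag1 (0.466), the insulin receptor substrate gene Irs1 (0.513) and the netrin receptor gene Neo1 (0.514), each at its lowest on lung 18.

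Further genes of the pathway and of brain endothelium, listed by role and chosen with earlier results of these data known, differed in both directions. Of 86 measured genes 19 were called towards cortex and 10 towards lung, beside the 10.4% and 7.71% of all genes, and 57 were not called. The 86 include 13 genes of brain endothelium or its barrier, which gave 7 of the calls towards cortex and 1 of those towards lung. Among 17 receptors and Dishevelled genes, 3 rose in cortex and 4 fell, with a median difference of 0.18 log2 units. Endothelial scaling gave the list 8 calls towards cortex, 0 towards lung and a median of 1.37, beside the 27.6%, 0.824% and 1.10 of all genes. The Frizzled receptor gene Fzd3 lay at 9.85 ± 0.46 in cortex and 7.04 ± 0.47 in lung (7.01-fold, limma adjusted p = 0.000308), although the mean of all its probe sets differed by 1.82 log2 units, 3.53-fold. Fzd2 lay at 11.39 ± 0.41 in cortex, against 9.20 ± 0.95 in lung (adjusted p = 0.0105). Fzd4, the receptor of norrin, fell to 9.37 ± 1.22 in cortex, against 11.52 ± 0.33 in lung (adjusted p = 0.0256), and Lgr6, a receptor of R-spondins, to 4.68 ± 0.19 in cortex, against 6.0 ± 0.43 in lung (adjusted p = 0.00418). Lgr6 was dim on every array, at 4.4 to 4.8 in cortex and 5.54 to 6.54 in lung, below the array medians of 6.59 to 6.72. A filter on the dimmest 25% of genes removed it. The mean of all Lgr6 probe sets differed by -0.76 log2 units, still called. Fzd4 was lower on cortex 72 and 18, at 9.0 and 7.82, than on cortex 22 and 19, at 10.24 and 10.43. The calls of Fzd4 and Lgr6 ended under endothelial scaling, at -0.96 and -0.14 log2 units. The call of Fzd4 also ended without cortex 72, lung 72, lung 22 or lung 19 (-2.02 to -2.12 log2 units). Without cortex 72, lung 72 or lung 19 this list had 2 genes called lower in cortex.

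Of 15 genes for beta-catenin and its destruction complex, 4 rose in cortex and 0 were called lower, with a median of 0.41 log2 units. The share called towards cortex was 26.7%, beside 10.4% of all genes, and 7.71% of all genes were called towards lung. Under endothelial scaling the counts were 8 (53.3%) and 0 and the median 1.59, beside the 27.6%, 0.824% and 1.10 of all genes. Beta-catenin itself, Ctnnb1, lay at 13.87 ± 0.15 in cortex and 13.74 ± 0.11 in lung (difference 0.13 log2 units, 95% confidence interval -0.17 to 0.43, limma adjusted p = 0.538). Apc2, an Apc relative known from neurons, was 22.5-fold higher in cortex, at 9.87 ± 0.57 against 5.38 ± 0.18 in lung (adjusted p = 1.84e-05). That size rests on the probe set, as the mean of all Apc2 probe sets differed by 2.41 log2 units, 5.32-fold, and the choice without _x_at and _s_at types by 1.16, 2.23-fold, both still called. Apc, the scaffold of the complex, was 3.65-fold higher, at 11.42 ± 0.27 in cortex, against 9.55 ± 0.45 in lung (adjusted p = 0.00106), but the mean of all its probe sets differed by 0.55 log2 units without a call (adjusted p = 0.149). On cortex 72 and 18 Apc2 reached 10.48 and 10.23, above 9.34 and 9.42 on cortex 22 and 19. The neural marker means were likewise higher on cortex 72 and 18 than on 22 and 19. The part of neural transcripts in the Apc2 values was not tested. The count of this list was 2 without cortex 18.

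Among 15 nuclear partners, 2 rose in cortex, 13.3% beside the 10.4% of all genes, and 13 were not called. Under endothelial scaling 9 were called towards cortex and 0 towards lung, beside the 27.6% and 0.824% of all genes, with a median of 1.43 log2 units. The corepressor gene Tle3 lay at 11.61 ± 0.13 in cortex and 10.67 ± 0.26 in lung (limma adjusted p = 0.00424), and the beta-catenin adaptor gene Bcl9 at 10.22 ± 0.34 and 9.41 ± 0.33 (adjusted p = 0.0392). The call of Bcl9 ended without cortex 22, cortex 18, lung 22, lung 19 or lung 18 (0.68 to 0.88 log2 units), which left 1 called gene. Centring arrays on their medians ended it too (0.73 log2 units, adjusted p = 0.0546), as did the sample number as a block (adjusted p = 0.105) and the fit over all probe sets (adjusted p = 0.0534). The relatives of Lef1 on this list, Tcf7l1 and Tcf7l2, were not called, with differences of -0.21 and 0.43 log2 units.

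Of 26 other reported target genes, 3 rose in cortex, 5 fell and 18 were not called, with a median of -0.24 log2 units, against 1.01 for the 9 Wnt genes. These are shares of 11.5% and 19.2%, beside 10.4% and 7.71% of all genes. Part of the list was dim. Without the dimmest 25% of genes 18 of the 26 remained, with 3 calls towards cortex, 4 towards lung and a median of -0.37 log2 units. Under endothelial scaling the list had 6 calls towards cortex, 1 towards lung and a median of 0.95, below the 1.10 of all genes. The adhesion molecule gene Nrcam was 27.3-fold higher in cortex, at 10.37 ± 0.52 against 5.6 ± 0.92 in lung (limma adjusted p = 0.000183), and the zinc finger factor gene Sp8, a relative of Sp5, 15.0-fold, at 8.96 ± 0.40 against 5.05 ± 0.65 (adjusted p = 0.000104). The mean of all Nrcam probe sets differed by 3.10 log2 units, 8.57-fold. Both genes are also known from neural cells. The hyaluronan receptor gene Cd44 fell to 6.03 ± 0.90 in cortex, against 9.76 ± 0.90 in lung (adjusted p = 0.00184), and the T-box factor gene Tbx3 to 8.33 ± 0.82, against 10.59 ± 0.06 (adjusted p = 0.00291). The means of all probe sets differed by -2.56 log2 units for Cd44 and -1.44 for Tbx3, both still called. The call of Tbx3 ended under endothelial scaling (-1.08 log2 units, adjusted p = 0.115). The count towards lung was 2 without cortex 22 or cortex 18 and 3 without lung 72, 22 or 19. Nkd2, the relative of Nkd1, lay at 5.91 ± 0.13 in cortex and 6.05 ± 0.35 in lung, a difference of -0.15 log2 units (95% confidence interval -0.58 to 0.29). It was named after its values were seen, as were Ctnnb1, Tcf7l1 and Tcf7l2.

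Genes tied to beta-catenin signalling in brain endothelium or to its barrier were called higher in cortex for 7 of 13 and higher in lung for 1, with a median of 0.99 log2 units. The shares were 53.8% and 7.69%, beside 10.4% and 7.71% of all genes, whose median was -0.09. This list, like the others, was chosen with earlier results of these data known. The lipid transporter Mfsd2a lay at 12.31 ± 0.63 in cortex and 6.67 ± 0.48 in lung (limma adjusted p = 1.92e-05), and the thyroid hormone carrier Slco1c1 at 11.64 ± 0.94 and 6.0 ± 0.20 (adjusted p = 4.53e-05). Plvap, the diaphragm protein that beta-catenin signalling is known to repress in brain vessels, fell to 10.46 ± 0.92, against 12.56 ± 0.06 in lung (adjusted p = 0.00748). Its call ended under endothelial scaling (-0.91 log2 units, adjusted p = 0.16). The count towards lung was 2 without cortex 22. Endothelial scaling gave this list 9 calls towards cortex (69.2%), 0 towards lung and a median of 2.18. Over all genes these were 27.6%, 0.824% and 1.10. Without cortex 72 and 18, the differences of named pathway genes that moved most were -1.18 log2 units for Fzd4, -3.09 for Cd44, -1.56 for Tbx3, -1.42 for Plvap and 6.39 for Slco1c1, all called, while the calls of Fzd2, Bcl9 and Lgr6 ended.

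**Figure D5:**
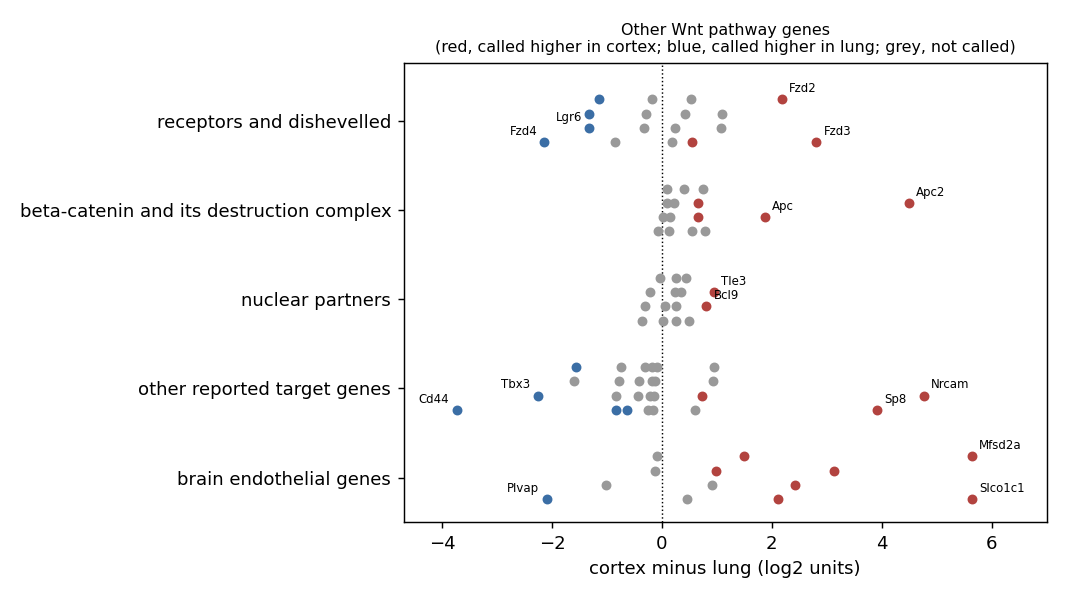
Cortex minus lung in log2 units (x axis) for 86 genes in 5 lists, of the Wnt pathway and of brain endothelium (rows, with small vertical offsets for legibility). Red points were called higher in cortex (19 genes), blue points higher in lung (10 genes) and grey points were not called. The brain endothelial list has the highest share of red points, 7 of 13.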

How the data were processed

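Per the labels' protocols, sorted GFP-positive cells gave 15 to 30 ng of RNA, which was linearly amplified, biotin-labelled and hybridised to Affymetrix Mouse Genome arrays. The authors deposited log2 values per probe set, made with RMA and the affy package per the submitters' processing notes, with versions not given in the sources used here. RMA summarises probes after background correction and quantile normalization, so each difference is relative to the rest of the array. The values ran from 2.82 to 15.22 and carry no detection call. The number of arrays limits the precision.

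Of 45037 probe sets that were not controls, 34945 named 1 gene, 932 several and 9160 were unnamed here. By gene number 34741 were matched to RefSeq, and 0 symbols changed. Columns were mapped by sample identifier, with 0 left out. The tissue difference was fitted in limma 3.58.1 (R 4.3.3, lmFit, eBayes, tissue as the factor, two-sided p-values, Benjamini-Hochberg over 18193 genes). The fit was tested on simulated data. Differences are cortex minus lung.

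The 10 genes and all lists were chosen with earlier results of these data known. Named pathway genes were the 2 largest called differences in each direction of a list, and for each called Wnt gene the 3 nearest genes. Alternatives changed the probe set rule, the dim-gene filter (lowest 25%), scaling, weights, variance prior, block and arrays used. Marker lists were endothelial, neural, mesenchymal and mural, lung epithelial, erythroid, macrophage and choroid plexus.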

Additional observations from a re-analysis of the deposited data

Results flagged for a closer look

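The lung arrays of Apcdd1 lay at 10.00, 9.10, 9.94 and 9.98 for numbers 72, 22, 19 and 18. Lung 22, at 9.10, stood apart from the others, with a gap to its nearest neighbour of 0.931 of the whole range, above Dixon's 95% critical value for 4 samples. It was the 1 flag among 18 groups of 4 arrays (9 genes in 2 tissues), where chance gives about 1 in 20. Without lung 22 the Apcdd1 difference was 2.80 log2 units (limma adjusted p = 0.00117).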

How the results depend on the processing

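The count of Wnt genes called higher in cortex was 3, and 2 to 3 without any single array. It was 7 under endothelial scaling, 5 with array weights (Lef1 and Sp5 added) and 1 without both arrays numbered 22 or both numbered 19. The count higher in lung stayed at 0 in all alternatives, with limma the tool in each. Apcdd1 kept its call in 22 of 22 alternatives, Nkd1 in 20 and Tnfrsf19 in 11. Notum turned to 1.15 log2 units under endothelial scaling, 0.02 with array weights, 0.17 without both arrays numbered 72, 0.03 without both numbered 19, 0.03 without cortex 72 and 18 (added after the data were seen), and between -0.18 and 0.17 without any single array, being above 0 without cortex 19 (0.08), cortex 18 (0.01) or lung 72 (0.17). Rnf43 turned to 0.91 under endothelial scaling, and neither Rnf43 nor Notum passed the filter on dim genes, so that setting gave them no value. Other listed genes, of the pathway and of brain endothelium, that were called higher in cortex numbered 19 and ran from 15 to 20 without any single array. They were 40 under endothelial scaling, 12 without both arrays numbered 22, 12 without both numbered 19 and 12 at a difference of at least 1 log2 unit. Those called higher in lung numbered 10, and 6 to 9 without any single array. They were 1 under endothelial scaling, 3 without both arrays numbered 72, 5 without both numbered 22 and 5 without cortex 72 and 18. All genes called numbered 3291, and 2393 to 3081 without any single array. They were 5166 under endothelial scaling, 2074, 2153 and 2144 without both arrays numbered 72, 22 or 19, and 1689 without cortex 72 and 18, where fewer arrays were fitted. Other causes were not tested.

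The sample number was not used as a pairing because the labels do not say that it is the same litter in both tissues. Same-numbered arrays did not deviate together in every pair (correlations of 0.335, -0.162, 0.009 and 0.307 for 72, 22, 19 and 18). Of the 4 cortex arrays, 2 correlated best with their own number. With so few arrays, these correlations cannot settle whether the numbers mark pairs. With the sample number as a block, 3 Wnt genes were called higher in cortex, 15 other listed genes towards cortex and 12 towards lung, and 3143 genes in all. Among the Wnt genes and the pathway genes named by the rule, only Bcl9 changed its call, which ended (adjusted p = 0.105).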
